A study of Mus musculus with 20 samples.

Results

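Collagen genes were taken as every row of the count table whose symbol is Col, a type number, the letter a and a chain number, which selected 44 of 55866 genes. Collagens are triple helical proteins of the extracellular matrix. Fibrillar chains form the ropes of connective tissue, type IV chains form the network of basement membranes, and microfibrils, linker collagens and transmembrane collagens connect those structures to each other and to cells. In blood vessels, endothelial cells and pericytes lay down the basement membrane, whereas fibroblasts are the best known source of fibrillar collagen. The 44 genes were divided by textbook class into 11 fibrillar, 8 basement membrane and 25 other collagens, the last comprising 7 beaded filament genes (type VI and Col28a1), 9 fibril-associated (FACIT) genes, 3 short-chain genes, 4 transmembrane genes, and Col7a1 and Col26a1.

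The libraries came from Py8119 tumors, an established mouse mammary carcinoma line, grown in the mammary fat pad of female RiboTag EC mice of strain C57BL/6J. All mice, controls included, carried Rpl22HA/HA x Cdh5CreERT2, so that Cre under the endothelial Cdh5 promoter switches on an HA tag on the ribosomal protein Rpl22, and all were given tamoxifen (75 mg/kg for 5 days) from 3 weeks of age. Tumor cells were implanted at 8 weeks, and established tumors (about 30 mm3 in the sample labels, 50 mm3 in the design text) were treated with 25 mg/kg of 6-3-A6, an antibody against Notch4, or with control mouse IgG, given intravenously for 10 days until harvest. Of each of 10 tumors, 5 per treatment, mRNA was sequenced from the whole homogenate (input) and from ribosomes immunoprecipitated with anti-HA antibody (IP), which gave 20 libraries in 4 groups of 5. The IP therefore reports ribosome-bound mRNA of cells that had expressed Cdh5-driven Cre, together with whatever other RNA stayed on the beads. For the 10 libraries of the 6-3-A6 group the free-text descriptions name the other fraction than the titles do. The titles were followed here, and every library titled IP was above every library titled input in its summed endothelial markers.

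Libraries held between 11881214 and 26728205 counts on genes (median 16942643). All 18 endothelial marker genes were higher in IP, and Pecam1, a junction protein of endothelium, ranged from 191 to 1519 CPM (counts scaled to a common library size with TMM factors) in the IP libraries and from 34.6 to 72.9 CPM in the input libraries. Markers of other cells were also present in the IP: the summed level of 13 macrophage genes was 3511 to 9495 CPM in IP and 6816 to 15697 CPM in input, with Itgam at 0 in every library, and that of 10 fibroblast genes was 223 to 983 CPM in IP and 401 to 975 CPM in input, with none at 0 throughout. IP libraries differed widely in their endothelial markers, with a summed level of the 18 genes from 1284 to 7221 CPM. The lowest were 6-3-A6 IP 2 and control IgG IP 4. One input library, 6-3-A6 input 4, stood apart for collagens, with the highest value of 14 of the 43 detected genes and the lowest value of 9. Because these are bulk libraries, fewer cells of a type and less RNA per cell cannot be told apart.

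Collagen genes together took 0.201% to 0.679% of all counts. The 7 genes Col1a1, Col1a2, Col3a1, Col4a1, Col4a2, Col6a1 and Col6a2 held 72.4% of the 1341276 collagen counts. The count table gives each collagen gene as a single span from start to end, introns included (114404 bases for Col4a1, with 6651 exon bases). Reads in introns may therefore be among the counts, and levels per kilobase of exon give only a rough order. Per kilobase of exon, the input was led by Col6a1, a chain of the beaded filament collagen VI, at 131 ± 41.3 CPM per kb (mean ± SD, n = 10), followed by Col1a1 at 101 ± 79.7 and Col3a1 at 79.1 ± 32.6. In the IP the order was Col3a1 (101 ± 64.0 CPM per kb), Col6a1 (94.8 ± 51.5), Col1a1 (94.1 ± 67.6), Col4a1 (79.1 ± 21.2) and Col4a2 (74.6 ± 22.0), and these neighbours lay within one SD of each other. Col4a1 stood at rank 8 and Col4a2 at rank 9 in the input, at 25.0 ± 10.7 and 18.5 ± 5.84 CPM per kb. Col10a1, the short-chain collagen of hypertrophic cartilage, had 0 counts in all 20 libraries. Its whole span lies inside that of Nt5dc1 on the other strand, and the treatment of reads shared by several genes is not given in the sources used here. The 0 may therefore come from the counting. A floor of 3 counts per library, 0.112 to 0.252 CPM depending on depth, is an upper limit only if such reads were counted. The 13 genes that did not pass the count filter in the comparison of IP with input (Col4a3, Col4a4, Col2a1, Col25a1, Col19a1, Col22a1, Col9a1, Col9a2, Col9a3, Col26a1, Col6a5, Col6a6 and Col10a1) reached at most 1.17 CPM outside 6-3-A6 input 4, and 9 of the 12 with any count were highest in that library, up to 9.55 CPM for Col25a1.

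The type IV genes lie in head-to-head pairs. In the coordinates of the count table (GRCm39), Col4a1 (chr8:11248423-11362826, minus strand) and Col4a2 (chr8:11362805-11499287, plus strand) overlap by 22 bases at their starts, Col4a3 and Col4a4 are 71 bases apart on chromosome 1, and Col4a5 and Col4a6 are 1308 bases apart on the X chromosome. The strand setting of the counting was not given in the sources used here, so that reads in such overlaps cannot be assigned with certainty. RefSeq promoter windows of GRCm38.p6, each from 250 bases before to 50 bases after the start, were found for 35 of the 44 genes. The windows of Col4a1 and Col4a2 are shown because both genes rose in the IP, and 78 bases belong to both windows, in capitals, as each other's reverse complement. The Col4a1 window is at chr8:11312777-11313076 and the Col4a2 window at chr8:11312555-11312854 of GRCm38.p6, both written 5′ to 3′ on the strand of the gene.
Col4a1: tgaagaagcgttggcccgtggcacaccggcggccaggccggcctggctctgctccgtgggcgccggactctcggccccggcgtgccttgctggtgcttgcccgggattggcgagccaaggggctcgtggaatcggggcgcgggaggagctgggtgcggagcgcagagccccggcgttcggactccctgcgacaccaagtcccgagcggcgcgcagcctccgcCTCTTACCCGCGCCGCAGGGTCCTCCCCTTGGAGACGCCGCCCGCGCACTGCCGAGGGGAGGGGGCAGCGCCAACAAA
Col4a2: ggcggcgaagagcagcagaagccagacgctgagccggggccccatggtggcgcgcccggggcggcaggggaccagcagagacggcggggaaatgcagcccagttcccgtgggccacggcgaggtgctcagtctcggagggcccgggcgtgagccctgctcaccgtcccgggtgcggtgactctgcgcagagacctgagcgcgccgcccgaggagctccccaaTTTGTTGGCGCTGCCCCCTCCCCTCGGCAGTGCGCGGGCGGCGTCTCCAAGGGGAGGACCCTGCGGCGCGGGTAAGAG

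The windows of Col13a1 (chr10:61979059-61979358, minus strand, GRCm38.p6) and Col15a1 (chr4:47207762-47208061, plus strand) are shown beside them because these 4 genes rose in the IP under both treatments. Here capitals mark any match, on either strand, to 3 short motifs. The CCAAT box was searched by that same string. The GC box was searched by the letters GGGCGG. The TATA box was searched by the letters TATAAA, and none of these strings holds another.
Col13a1: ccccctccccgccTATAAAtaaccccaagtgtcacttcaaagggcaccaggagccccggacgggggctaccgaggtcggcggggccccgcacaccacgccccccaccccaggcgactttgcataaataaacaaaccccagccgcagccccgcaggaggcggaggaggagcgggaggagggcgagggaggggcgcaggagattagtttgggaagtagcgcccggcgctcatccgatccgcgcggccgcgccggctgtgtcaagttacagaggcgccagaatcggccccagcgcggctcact
Col15a1: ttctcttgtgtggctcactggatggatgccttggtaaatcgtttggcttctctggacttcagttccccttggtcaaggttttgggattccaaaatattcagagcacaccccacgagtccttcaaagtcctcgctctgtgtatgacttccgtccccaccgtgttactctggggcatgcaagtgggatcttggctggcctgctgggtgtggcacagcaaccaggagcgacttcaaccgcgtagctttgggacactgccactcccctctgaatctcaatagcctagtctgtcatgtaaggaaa

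The Col13a1 window held 1 TATA box, and Col15a1 held none of the 3 motifs. Both type IV windows held 1 CCAAT box and no TATA box, and the GC box occurred 1 time in the Col4a1 window and 3 times in the Col4a2 window. Over the 38 windows of collagen genes, the CCAAT box was in 13 (34.2%), the GC box in 23 (60.5%) and the TATA box in 5 (13.2%), where all 32851 windows of the table held them in 37.4%, 35.7% and 13.6%. A match of letters is a description of the window and not of a bound site.

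The first question was which collagens were enriched in the endothelial IP. The basement membrane genes Col4a1, Col4a2 and Col15a1, the transmembrane collagen Col13a1 and the beaded filament gene Col28a1 rose in IP against input. The type IV genes Col4a5 and Col4a6, the collagen VI gene Col6a2 and the short-chain genes Col8a1 and Col8a2 fell. No fibrillar chain passed the edgeR threshold in the fit over all 20 libraries without the tumor as a block. In the tumors of the IP libraries that the study kept, Col1a2 did so without the block (-1.05, edgeR adjusted p = 0.013). With the block, which uses the pairing of IP and input, the fibrillar genes Col1a2 (-0.89, adjusted p = 0.0051) and Col27a1 (0.39, adjusted p = 0.016) were called as well, where 52.4% of all genes were called with it. Of 31 collagen genes tested with the edgeR quasi-likelihood test over 20 libraries, 10 were called at an adjusted p under 0.05, 5 higher and 5 lower. Among all 13582 genes tested, 41.2% were called, 19.8% higher and 21.4% lower, so that the share of called collagens was not above the background. At an unadjusted p under 0.05 there were 13 collagens, where 50.2% of all genes were. The log2 fold change was below 0 in 17 of 31 collagens and in 53.5% of all genes, and its median was -0.10 for the collagens and -0.05 for all genes. The collagen median changed sign without control IgG input 1 (0.09) or control IgG IP 3 (0.02). Values of the 2 groups did not overlap for 3 collagens, all higher in IP, against 4.48% of all genes. In the same comparison 8 of 12 macrophage, 5 of 10 fibroblast and 2 of 7 epithelial markers fell in IP, and 2 of 9 mural markers rose and 1 fell. The part of these cells in the collagen differences was not tested.

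**Figure D1:**
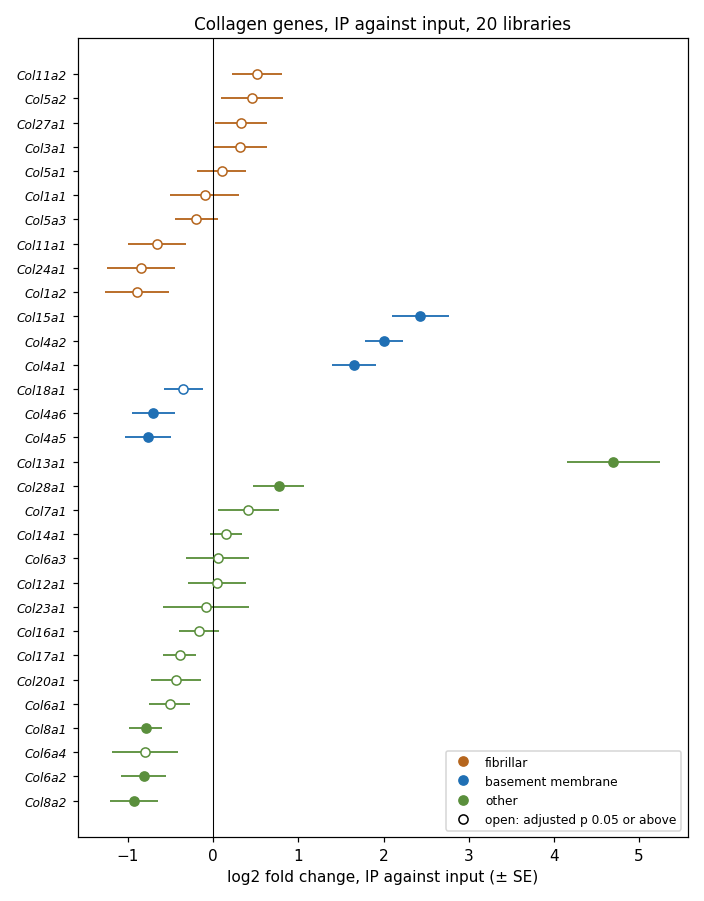
Log2 fold change of IP against input (x axis, bars ± SE) for the 31 tested collagen genes, coloured by class, with filled points for an adjusted p under 0.05 in edgeR's quasi-likelihood test over 20 libraries. Col13a1, Col15a1, Col4a2 and Col4a1 lie at 4.70, 2.43, 2.01 and 1.66, while the 10 fibrillar genes lie between -0.89 and 0.51 and all are open.

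Col4a1 and Col4a2 encode the α1 and α2 chains that assemble into the type IV collagen found in nearly all basement membranes. Col4a2 was at 224, 511 and 646 CPM (lowest, median and highest of 10) in IP and at 39.5, 114 and 165 CPM in input. Col4a1 was at 300.4, 537 and 761 CPM in IP and at 36.7, 169 and 273 CPM in input. All IP libraries lay above all input libraries for both genes, and IP exceeded input in 10 of 10 tumors. The log2 fold change was 2.01 ± 0.22 (SE) for Col4a2 (edgeR adjusted p = 3e-07) and 1.66 ± 0.26 for Col4a1 (adjusted p = 3.4e-05). The lowest input values of both were those of 6-3-A6 input 4, and without it the log2 fold changes were 1.93 and 1.55. The log2 ratio of Col4a1 to Col4a2 counts was 0.15 ± 0.41 in IP and 0.39 ± 0.54 in input (SD, n = 10), and it was lower in IP in 9 of 10 tumors.

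Col15a1 encodes type XV collagen, a proteoglycan collagen that lies beneath the basement membrane of microvessels and muscle. Its levels were 51.4, 192 and 403 CPM in IP and 18.0, 39.2 and 59.3 CPM in input, with a log2 fold change of 2.43 ± 0.33 (edgeR adjusted p = 6.7e-06). Only the lowest IP library, 6-3-A6 IP 2, fell within the input range, and IP was higher in 10 of 10 tumors. Col18a1 encodes type XVIII collagen, whose C-terminal fragment is endostatin. It was at 93.5, 141 and 257 CPM in IP and at 68.6, 232 and 337 CPM in input, and its log2 fold change of -0.35 ± 0.23 was not called (adjusted p = 0.22).

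Col4a5 and Col4a6 encode the α5 and α6 chains, which form a type IV network together with α1 and α2 beneath some epithelia and smooth muscle. Both fell in IP. Col4a6 was at 14.6, 30.8 and 84.9 CPM in IP and at 30.9, 66.4 and 80.2 CPM in input (log2 fold change -0.70 ± 0.25, edgeR adjusted p = 0.03), and Col4a5 was at 10.9, 26.6 and 65.9 CPM in IP and at 24.2, 53.4 and 67.3 CPM in input (-0.76 ± 0.27, adjusted p = 0.026). The highest IP value of both genes was in 6-3-A6 IP 2, a library with few endothelial transcripts. The basement membrane class thus held 3 genes that rose and 2 that fell. The call of Col4a6 was lost when any of 3 libraries (control IgG IP 3, 6-3-A6 input 1 or 6-3-A6 IP 1) was left out, with log2 fold changes between -0.96 and -0.61 over all 20 omissions. Without the filter on low counts, Col4a6 and the short-chain gene Col8a2 were not called.

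Col13a1, a transmembrane collagen of cell adhesion sites, showed the highest IP to input difference among the collagens. It was at 2.96, 29.0 and 95.4 CPM in IP and at 0.283, 1.03 and 2.28 CPM in input, where it rested on 5 to 41 counts per library. The groups did not overlap, and the log2 fold change was 4.70 ± 0.54 (edgeR adjusted p = 6.1e-07). Within the IP it was lowest in control IgG IP 4 and 6-3-A6 IP 2, the same libraries that were lowest in endothelial markers, and whether that content sets the level was not tested.

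**Figure D2:**
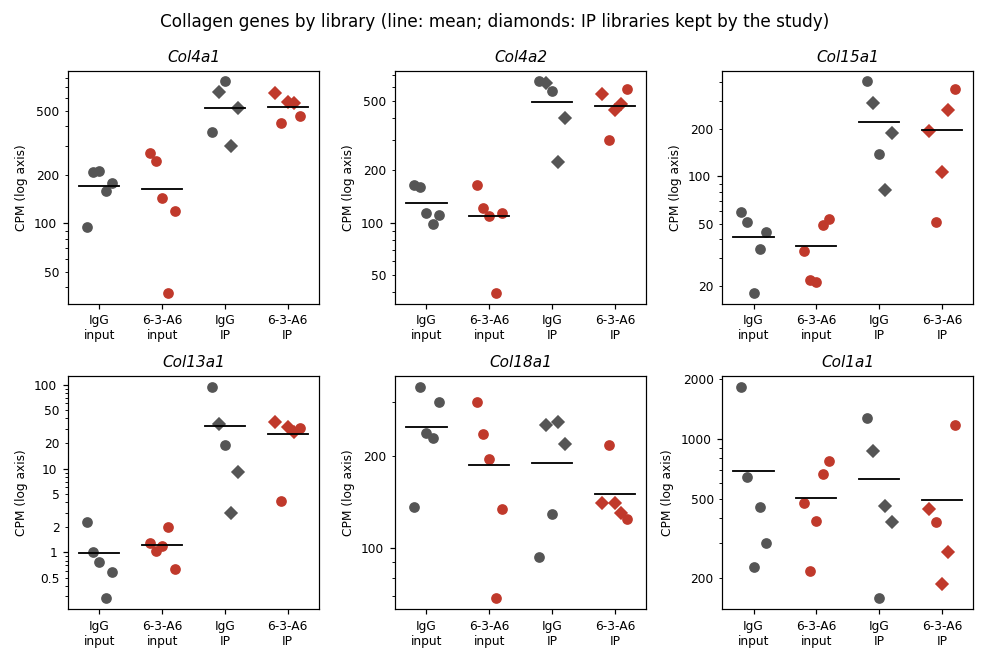
CPM on a log axis for 6 collagen genes in each of the 20 libraries, by treatment and fraction, with the group mean as a line and diamonds for the 6 IP libraries kept by the study. Col4a1, Col4a2 and Col13a1 do not overlap between IP and input, while the ranges of Col18a1 and Col1a1 overlap.

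edgeR called 0 of the 10 tested fibrillar genes between fractions, with 2 at an unadjusted p under 0.05, where 41.2% and 50.2% of all genes were. The median of the fibrillar log2 fold changes was 0.00. DESeq2, which called 44.4% of all genes, called 1, Col1a2 (-0.88, adjusted p = 0.033). Col1a1, the α1 chain of type I collagen, was at 157, 412 and 1269 CPM in IP and at 217, 465 and 1832 CPM in input (log2 fold change -0.10 ± 0.41, edgeR adjusted p = 0.86). Col3a1, the chain of type III collagen in pliable tissue and vessel walls, was at 173, 518 and 1369 CPM in IP and at 219, 379 and 809.7 CPM in input (0.32 ± 0.31, adjusted p = 0.43). The spread among libraries of one fraction was larger than the difference between fractions for both. Col1a2, the α2 chain of type I collagen, was at 53.4, 216 and 544 CPM in IP and at 154, 344 and 1221 CPM in input, and its -0.89 ± 0.37 had an adjusted p of 0.059. It was lower in IP in 9 of 10 tumors, and it was called with the tumor as a block and in the tumors of the kept IP libraries. The chains of type I collagen thus shifted unequally: the log2 ratio of Col1a1 to Col1a2 counts was 1.27 ± 0.53 in IP and 0.52 ± 0.10 in input (SD, n = 10) and was higher in IP in 10 of 10 tumors, by 0.12 to 1.34. Col5a1 was at 43.4, 90.4 and 199.8 CPM in IP and at 39.1, 102 and 212 CPM in input, with overlapping ranges. Type V chains, which regulate fibril diameter, were not called, with log2 fold changes of 0.10 ± 0.29 for Col5a1, 0.46 ± 0.37 for Col5a2 and -0.20 ± 0.25 for Col5a3. As a measure free of scaling between libraries, the log2 ratio of Col4a1 to Col1a1 was higher in IP than in input in 9 of 10 tumors, by a median of 1.35.

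Among the other collagens, 5 of 15 tested were called, where 41.2% of all genes were. Col13a1 and Col28a1 were higher, and Col6a2, Col8a1 and Col8a2 were lower. Col6a2, the α2 chain of collagen VI, was at 51.6, 145 and 346 CPM in IP and at 104, 266 and 487 CPM in input (log2 fold change -0.82 ± 0.27, edgeR adjusted p = 0.018). Col6a1, its α1 chain, gave -0.51 ± 0.24 (adjusted p = 0.089), and Col6a3, its α3 chain, gave 0.05 ± 0.37 (adjusted p = 0.92), so that 1 of the 4 tested collagen VI genes was called without the block and 2, Col6a2 and Col6a1, with it. Within each of the 10 tumors the ratio of Col6a1 to Col6a2 was higher in IP, by 0.08 to 0.58 on the log2 scale.

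Col8a1 and Col8a2 encode the chains of type VIII collagen, a short-chain network former of vessel walls and the cornea. Col8a1 was at 48.7, 115 and 151 CPM in IP and at 104, 169 and 219.8 CPM in input (log2 fold change -0.79 ± 0.19, edgeR adjusted p = 0.0029). Col8a2 was scarce, at 0.384, 0.783 and 1.51 CPM in IP and at 0.937, 1.4 and 3.23 CPM in input (-0.93 ± 0.28, adjusted p = 0.012), and was lower in IP in 10 of 10 tumors. Col28a1, a beaded filament collagen known mainly from nerve, was at 1.2, 2.92 and 4.1 CPM in IP and at 0.788, 1.32 and 5.35 CPM in input. Its log2 fold change of 0.77 ± 0.30 (adjusted p = 0.046) lost the call in 15 of 20 omissions of one library, and without 6-3-A6 input 4, the highest input library, it was 1.12 (adjusted p = 0.00087). Col12a1 was at 23.5, 43.5 and 187 CPM in IP and at 35.3, 54.3 and 150.2 CPM in input, and Col14a1 was at 23.7, 35.7 and 70.7 CPM in IP and at 26.3, 38.7 and 46.4 CPM in input. Both overlapped between fractions. The linker collagens Col12a1, Col14a1 and Col16a1 had log2 fold changes of 0.04 ± 0.34, 0.15 ± 0.19 and -0.16 ± 0.24, with adjusted p of 0.93, 0.54 and 0.6.

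**Figure D3:**
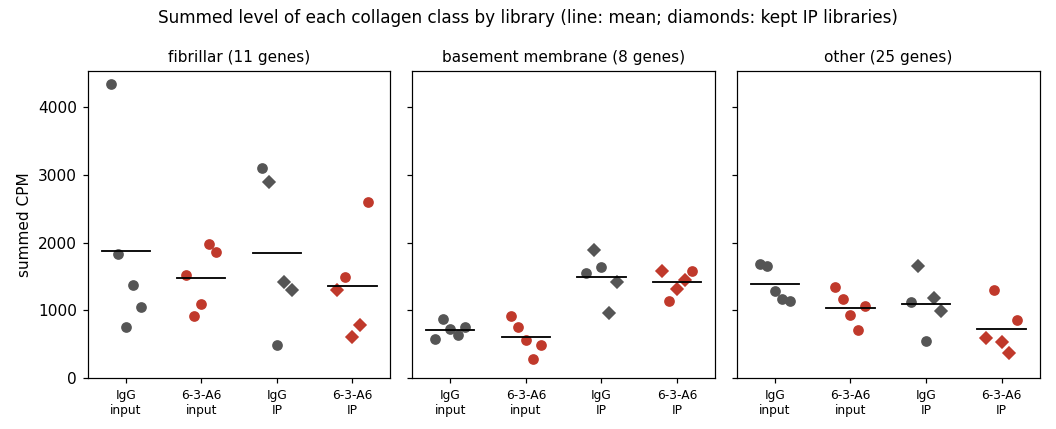
Summed CPM of the 11 fibrillar, 8 basement membrane and 25 other collagens in each library, by treatment and fraction, with group means as lines and diamonds for the 6 kept IP libraries. The basement membrane sum is 966 to 1896 CPM in IP and 279 to 917 CPM in input. The fibrillar sums overlap, at 491 to 3101 CPM in IP and 761 to 4350 CPM in input.

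Summed over class, basement membrane collagens were at 1456 ± 265 CPM in IP and 657 ± 189 CPM in input (SD, n = 10), without overlap. The members of that class did not move alike: Col4a1, Col4a2 and Col15a1 were higher in IP in 10 of 10 tumors, whereas Col18a1, Col4a5 and Col4a6 were lower in 8, 7 and 9 of 10. Fibrillar collagens were at 1599.8 ± 947 CPM in IP and 1676 ± 1031 CPM in input. The sum of the other collagens was 915 ± 408 CPM in IP and 1215 ± 299 CPM in input, with overlapping ranges.

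The same comparison was made within each treatment. In control IgG tumors, Col13a1, Col15a1, Col4a1 and Col4a2 were called higher, 4 of 31 tested, where 15.8% of 13671 genes were called and 10.1% were called higher. Their log2 fold changes were 5.00 ± 0.89, 2.42 ± 0.42, 1.62 ± 0.28 and 1.93 ± 0.28 (edgeR adjusted p between 0.0006 and 0.0027). In 6-3-A6 tumors the 4 genes rose by 4.42 ± 0.53, 2.47 ± 0.47, 1.71 ± 0.42 and 2.10 ± 0.33 (adjusted p between 9.9e-05 and 0.014), and Col8a1 was called lower at -0.93 ± 0.26 (adjusted p = 0.028). That made 5 of 31, where 18.2% of 13790 genes were called, 9.82% higher and 8.36% lower. With the tumor as a block, which uses the shared animal of each IP and input, 14 of 31 collagens were called over 20 libraries, 10 of 31 in control IgG tumors and 8 of 31 in 6-3-A6 tumors, where 52.4%, 33.9% and 25.6% of all genes were called, so that none of these shares was clearly above the background. Over all tumors the block added Col1a2 and Col6a1 (-0.58, edgeR adjusted p = 0.0087) as lower and Col27a1 and Col7a1 (0.33, adjusted p = 0.037) as higher.

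Collagen chains are modified, folded, trimmed and crosslinked by a dedicated set of proteins, and 20 genes of hydroxylation and folding were counted beside the collagens. In IP against input 6 were called higher and 8 lower, where 19.8% of all genes were called higher and 21.4% lower. Serpinh1, the collagen chaperone Hsp47, was at 108, 633 and 1372 CPM in IP and at 39.8, 57.1 and 154 CPM in input (log2 fold change 3.22 ± 0.35, edgeR adjusted p = 2.3e-07). Fkbp10, a collagen-folding prolyl isomerase, rose by 3.43 ± 0.29, Colgalt2, a collagen galactosyltransferase, by 3.97 ± 0.35, P3h4 by 3.24 ± 0.41, P3h2 by 1.12 ± 0.25 and Plod1, a lysyl hydroxylase, by 0.80 ± 0.25 on the log2 scale. The prolyl 4-hydroxylase subunits P4ha1 (-0.62 ± 0.15), P4ha3 (-1.55 ± 0.56) and P4hb (-0.58 ± 0.14) and the isomerase Ppib (-0.60 ± 0.13) fell. P4ha3 was at 49.1 CPM in 6-3-A6 input 4, and at 2.43 to 16.6 CPM in the other input libraries. The list thus split in both directions, with a median of -0.18.

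Of 6 tested genes of procollagen processing, Tll1, a tolloid proteinase, rose by 3.15 ± 0.39, while Pcolce (-0.72 ± 0.24) and Pcolce2 (-1.29 ± 0.15), enhancers of that cleavage, fell. Of 7 crosslinking genes, Pxdn, the peroxidasin that crosslinks type IV collagen, rose by 0.82 ± 0.17 (edgeR adjusted p = 0.00084) and Tgm2 by 1.10 ± 0.39, and the lysyl oxidase genes Lox (-0.81 ± 0.24), Loxl1 (-0.96 ± 0.35) and Loxl3 (-0.83 ± 0.21) fell. Of 10 receptor and uptake genes, Adgrg1, a receptor that binds type III collagen, rose by 2.82 ± 0.29 and Itga1, the α1 integrin subunit of a receptor for type IV collagen, by 1.12 ± 0.18, whereas Ddr1, Itga10 and Lair1 fell by 0.68, 1.06 and 0.80. All of these had edgeR adjusted p under the threshold, the largest being 0.034 for Loxl1, where 41.2% of all genes were called.

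The second question was whether 6-3-A6 changed collagen mRNA in the endothelial IP. After a principal component plot the study retained replicates 2, 4 and 5 of the control IgG IP and replicates 1, 3 and 4 of the 6-3-A6 IP. The comparison was made on these 6 and on all 10. In the kept libraries, 9 of 32 tested collagens were called, all lower under 6-3-A6, where 4.61% of 13999 genes were called and 2.04% were called lower. They were 4 collagen VI genes, 2 fibrillar genes, Col8a1, Col16a1 and Col18a1. In all, 27 of 32 collagens had a log2 fold change below 0, against 54.9% of all genes, and the median was -0.88 against -0.05. In 14 collagens all kept 6-3-A6 libraries lay below all kept control libraries, where 10.7% of all genes did so. Without 6-3-A6 IP 3, 9 genes and 0 collagens were called, without 6-3-A6 IP 4, 161 genes and 1 collagen, and without control IgG IP 4, 188 genes and 5 collagens. The libraries were chosen by the study on these data, and Col6a3 is named in its text from them, so that these counts are no independent evidence of a direction.

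Collagen VI genes had the lowest log2 fold changes. Col6a1 was at 865, 556 and 388 CPM in the kept control IgG libraries and at 263, 207 and 129.7 CPM in the kept 6-3-A6 libraries (log2 fold change -1.62 ± 0.34, edgeR adjusted p = 0.027). Col6a2 was at 346, 296 and 150.3 CPM against 87.7, 90.8 and 51.6 CPM (-1.81 ± 0.32, adjusted p = 0.02). Col6a3 was at 68.9, 38.7 and 61.6 CPM against 23.5, 17.7 and 14.4 CPM (-1.64 ± 0.26, adjusted p = 0.018). All control values lay above all treated values in each of the 3 genes. Col6a4, a chain that is scarce in most tissues, went from 1.12, 1.01 and 1.06 CPM to 0.409, 0.127 and 0.158 CPM (-2.26 ± 0.51, adjusted p = 0.035), where the lowest library had 3 counts.

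The left-out libraries differed in how they fell. Control IgG IP 1 lay above all kept 6-3-A6 libraries for Col6a1, Col6a2 and Col6a3, whereas others did not keep to the separation. Among all 5 control IgG IP libraries Col6a1 was at 406, 865, 259, 556 and 388 CPM, and among all 5 6-3-A6 IP libraries at 263, 484, 207, 129.7 and 329 CPM. Col6a3 was at 111, 68.9, 13.4, 38.7 and 61.6 CPM and at 23.5, 79.2, 17.7, 14.4 and 56.5 CPM. Control IgG IP 3 was below all kept 6-3-A6 libraries for Col6a3, and 6-3-A6 IP 2 was above all kept control libraries, so that the groups overlapped. Over all 10 IP libraries Col6a1 gave -0.81 ± 0.37, Col6a2 -0.78 ± 0.43, Col6a3 -0.62 ± 0.56 and Col6a4 -0.98 ± 0.50, each with an edgeR adjusted p of 1.

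**Figure D4:**
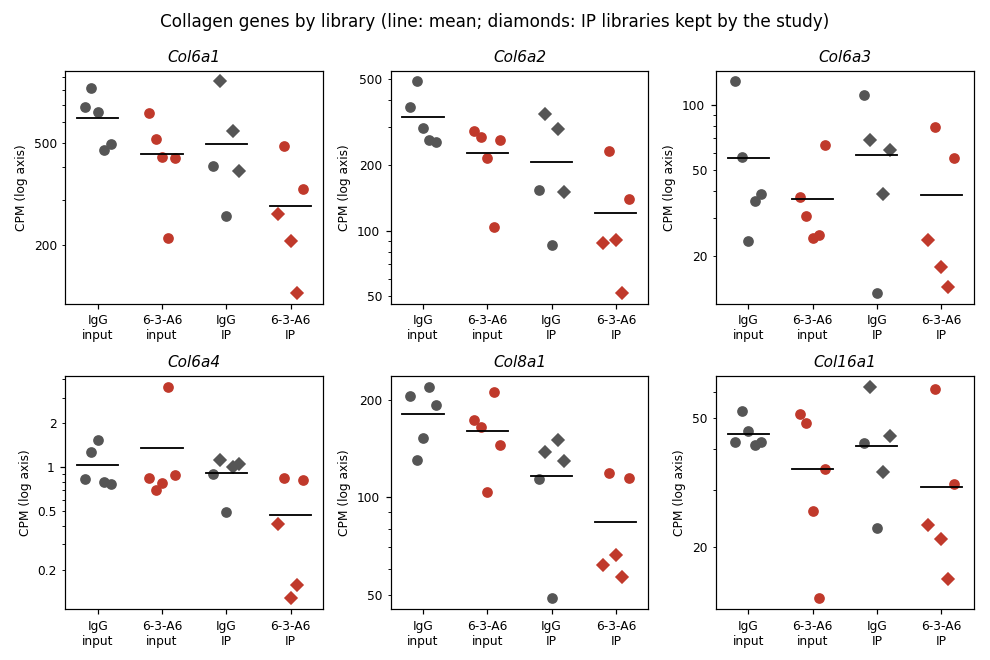
CPM on a log axis for 4 collagen VI genes, Col8a1 and Col16a1 in each of the 20 libraries, by treatment and fraction, with the group mean as a line and diamonds for the 6 IP libraries kept by the study. The kept libraries separate by treatment in every panel, while some of the left-out IP libraries, drawn as circles, close the gap between treatments.

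Col8a1 was at 138, 151 and 129.8 CPM in the kept control IgG libraries and at 61.9, 66.4 and 56.7 CPM in the kept 6-3-A6 libraries (log2 fold change -1.21 ± 0.18, edgeR adjusted p = 0.017). Left-out control IgG IP 3 was lower still, at 48.7 CPM, and left-out 6-3-A6 IP 2 and 5 were at 119 and 115 CPM. Col16a1, a FACIT linker, was at 62.3, 34.0 and 43.9 CPM against 23.4, 21.1 and 15.9 CPM (-1.24 ± 0.25, adjusted p = 0.025). Col18a1 was at 253, 257 and 219 CPM against 141, 140.4 and 131 CPM (-0.85 ± 0.18, adjusted p = 0.03), and the left-out control libraries 1 and 3 were at 93.5 and 129 CPM. Both genes overlapped between treatments once all 10 IP libraries were counted.

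Fibrillar genes were all below 0 in the kept libraries, 10 of 10, and 2 were called. Col1a2 was at 234, 304 and 197 CPM against 132, 112 and 101 CPM (log2 fold change -1.12 ± 0.22, edgeR adjusted p = 0.024). Col5a3 was at 65.9, 54.9 and 40.4 CPM against 24.3, 23.4 and 16.6 CPM (-1.35 ± 0.23, adjusted p = 0.018). The more abundant chains were more variable and were not called: Col1a1 was at 870.2, 457 and 379.5 CPM against 443, 185 and 268 CPM (-0.95 ± 0.37, adjusted p = 0.18), and Col3a1 at 1369, 433 and 496 CPM against 539.9, 192 and 299 CPM (-1.18 ± 0.47, adjusted p = 0.19). Col5a1 was at 168, 96.5 and 84.4 CPM against 80.0, 47.5 and 43.4 CPM, and gave -1.05 ± 0.31 (adjusted p = 0.079) and Col5a2 gave -1.13 ± 0.36 (adjusted p = 0.11).

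The 4 collagens with the highest IP to input difference were not called by treatment in edgeR with the count filter. Col4a1 was at 657, 300.4 and 517 CPM against 644, 568 and 557 CPM in the kept libraries, with a log2 fold change of 0.23 ± 0.28 (edgeR adjusted p = 0.71). Col4a2 gave 0.20 ± 0.33 (adjusted p = 0.79) and Col15a1 -0.02 ± 0.42 (adjusted p = 0.99). Col13a1 was at 34.0, 2.96 and 9.03 CPM against 36.1, 31.4 and 27.4 CPM, and its 1.01 ± 0.61 had an adjusted p of 0.4. The one control library as high as the treated group was replicate 2. Col12a1 (-0.73 ± 0.34) and Col14a1 (-0.82 ± 0.27), both FACIT genes, and the type IV chains Col4a5 (-0.91 ± 0.35) and Col4a6 (-1.07 ± 0.29) were below 0 without being called (adjusted p = 0.28, 0.12, 0.18 and 0.06). DESeq2 called 13 collagens in these libraries, the 9 above and Col5a1, Col5a2, Col4a6 and Col7a1 (adjusted p = 0.017, 0.027, 0.0099 and 0.011), all lower, where it called 8.87% of all genes. Without the filter on low counts edgeR called 19 of 43 collagens, where 5.44% of all genes were called. Beside the 9 above, these were Col13a1, which was higher at 1.01 (adjusted p = 0.00096), and Col1a1, Col3a1, Col5a1, Col5a2, Col7a1, Col4a5, Col4a6, Col12a1 and Col14a1, which were lower (adjusted p between 0.00012 and 0.045). In that fit the standard errors of the called collagens were nearly equal, 0.23 to 0.27 for all but Col6a4 (0.60). They hardly followed the spread of each gene: that of Col13a1 was 0.24 without the filter and 0.61 with it. These calls are therefore weak.

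Markers of several cell types moved with the treatment in the kept libraries. All 18 endothelial markers had a log2 fold change above 0 and 6 were called, where 2.57% of all genes were called higher and 2.04% lower, and their sum was 1578 to 5071 CPM in the control IgG and 5135 to 6479.5 CPM in the 6-3-A6 libraries. All 12 tested macrophage markers were below 0 and 7 were called, with a sum of 7024 to 8094 CPM against 3511 to 4145 CPM. All 7 epithelial markers were below 0 with 2 called (325 to 389 CPM against 168 to 239.7 CPM). Of 10 fibroblast markers 9 were below 0, and 1, Dcn, was called (438 to 741 CPM against 223 to 407 CPM). Mural markers summed to 206 to 342 CPM against 261 to 399 CPM, and lymphoid markers, with Ms4a1 at 0 in every library, to a median of 24.9 CPM against 16.7 CPM. An endothelial score, taken as mean log2 CPM of endothelial markers less the average over macrophage, fibroblast and epithelial markers, was 0.35 to 1.69 in the kept control libraries and 3.03 to 3.23 in the kept 6-3-A6 libraries, without overlap. The part of these markers in the collagen differences was not tested beyond a covariate. With the score as a covariate edgeR called 0 genes and 0 collagens, and 550 genes (3.93%) and 14 of 32 collagens had a p below 0.05 before adjustment. The calls were lost while the median log2 fold change of the collagens went from -0.88 to -1.56. With the covariate Col6a3 was at -2.91 ± 0.58, Col16a1 at -2.48 ± 0.53, Col6a1 at -2.36 ± 0.81 and Col6a2 at -1.94 ± 0.81, further from 0 and with larger standard errors than without it, whereas Col1a2 (-0.45 ± 0.56), Col18a1 (-0.75 ± 0.51) and Col8a1 (-1.03 ± 0.50) were nearer to 0. Col4a1, Col4a2 and Col13a1 changed sign, to -1.36 ± 0.56, -1.77 ± 0.57 and -3.40 ± 0.70, each with an edgeR adjusted p of 0.94. Col15a1, which was near 0 without the score, was at -2.21 ± 0.88 with it (edgeR adjusted p = 0.94). Over all 10 IP libraries, where the scores of the treatments overlap, the collagen median was -0.32 with the covariate and -0.31 without it. Since score and treatment do not overlap in these 6 libraries they cannot be told apart there.

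Of the companion genes in the kept libraries, 4 of 7 procollagen processing genes were called lower: Adamts2 (log2 fold change -1.27 ± 0.26), Adamts14 (-1.03 ± 0.22), Pcolce (-1.07 ± 0.26) and Pcolce2 (-1.09 ± 0.20), with edgeR adjusted p between 0.02 and 0.045, where 2.04% of all genes were called lower. Adamts2 and Adamts14 are procollagen N-proteinases. Of 7 crosslinking genes Loxl3 was called (-1.26 ± 0.22), and of 10 receptor and uptake genes Lair1 (-0.87 ± 0.21), an inhibitory collagen receptor of leukocytes, and Mrc2 (-1.26 ± 0.30), an endocytic collagen receptor, were called lower. Of 20 hydroxylation and folding genes 1 was called, P3h4, which was higher (1.27 ± 0.29). Pcolce2 was at 34.3, 39.3 and 26.5 CPM against 17.1, 14.4 and 16.5 CPM, without overlap. Of the 44 companion genes tested, 8 were called in all, against 4.61% of all genes, and the number was 0 without 6-3-A6 IP 3, 1 without 6-3-A6 IP 4 or control IgG IP 4, 3 without 6-3-A6 IP 1, 6 without control IgG IP 2 and 10 without control IgG IP 5.

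**Figure D5:**
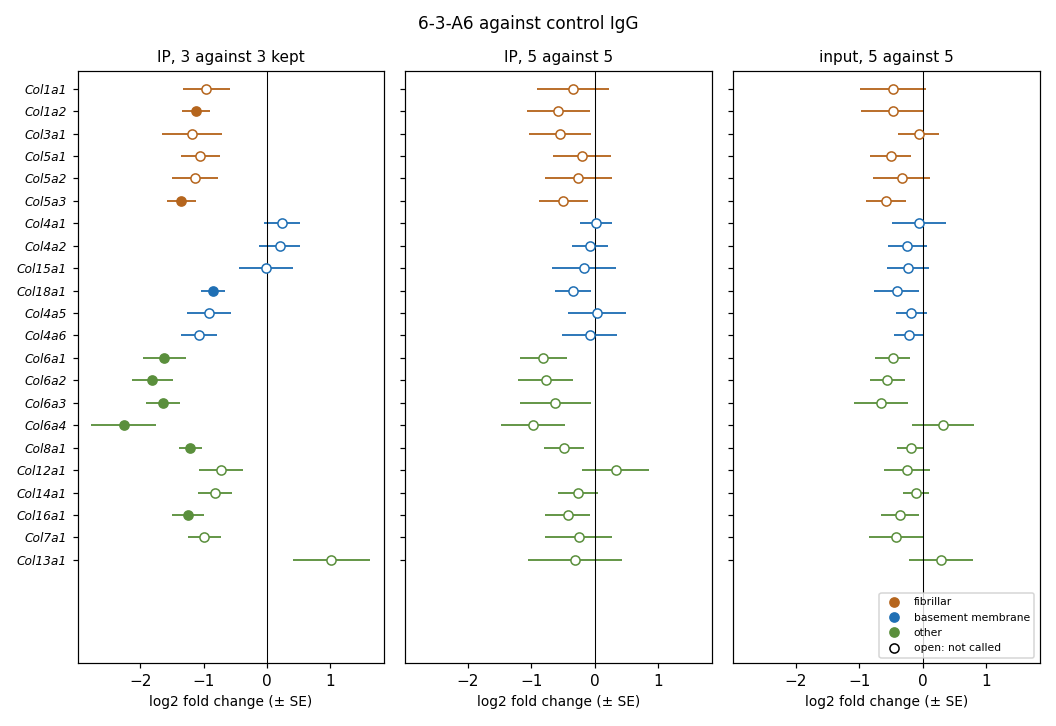
Log2 fold change of 6-3-A6 against control IgG (x axis, bars ± SE) for 22 collagen genes in 3 panels (the 6 kept IP, the 10 IP and the 10 input libraries), with filled points for edgeR adjusted p under 0.05. The 9 filled points, all in the first panel, lie between -2.26 and -0.85, and in the other panels no point is filled.

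Over all 10 IP libraries 0 of 13602 genes (0%) and 0 of 31 collagens passed the edgeR threshold. Before adjustment, 292 genes (2.15%) and 1 collagen, the minor fibrillar gene Col24a1, had a p under 0.05. DESeq2 called 0 genes and had 359 with an unadjusted p under 0.05. The median log2 fold change of the collagens was -0.31 against 0.01 for all genes, and 24 of 31 were below 0 where 48.3% of all genes were. Without control IgG IP 1 the collagen median was -0.15 with 13 of 31 above 0, and without 6-3-A6 IP 2, 6-3-A6 IP 5 or control IgG IP 3 it was -0.52, -0.50 or -0.47. In the whole-tumor input the edgeR test called 0 of 13683 genes (0%) and 0 of 32 collagens. Before adjustment 180 genes (1.32%) and 0 collagens had a p under 0.05, and by DESeq2 the numbers were 0 called and 220 with an unadjusted p under 0.05. There the median of the collagens was -0.22 against 0.01, and 22 of 32 were below 0 where 48.2% of all genes were. Without control IgG input 1 the collagen median was 0.01 and 16 of 32 were above 0, so that the direction rested on that library. The lowest input values were -0.65 ± 0.43 for Col6a3, -0.58 ± 0.32 for Col5a3 and -0.56 ± 0.28 for Col6a2, each with an adjusted p of 1. Col4a1 gave 0.01 ± 0.25 in the 10 IP libraries and -0.06 ± 0.42 in input.

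Whether the treatment difference itself differed between IP and input was tested as an interaction over 20 libraries. By edgeR 0 of 14488 genes (0%) and 0 of 33 collagens were called. Before adjustment 125 genes (0.863%) and 1 collagen (Col24a1) had a p under 0.05, against 162 genes by DESeq2, which called 0. The interaction was -0.34 ± 0.48 for Col6a1, 0.02 ± 0.75 for Col6a3 and 0.08 ± 0.52 for Col4a1 on the log2 scale. In simulated counts the interaction test called 8 of 98 changes of 2-fold and 54 of 99 of 4-fold. With standard errors of this size, the lack of a call leaves such differences between fractions possible for these genes.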

How the data were processed

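RNA-seq of 20 libraries (10 IP, 10 input) from 10 tumors was analysed as deposited. The authors aligned reads with STAR 2.7.4a and deposited raw counts per gene from featureCounts 2.0.1. The submitters' processing notes also list featureCounts 1.5.2 and GRCh38, with no role given. The methods name mm10, while gene positions in the table are those of GRCm39, and the strand setting and the treatment of reads shared by several genes are not given in the sources used here. A second deposited table holds a signal, counts divided by DESeq2 size factors by the authors, for 6 IP libraries, and was used only to learn which libraries the study kept. Its columns with the authors' own comparison (fold changes and p-values) were not used.

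Groups followed the sample titles. Counts were tested with the quasi-likelihood F test of edgeR 4.0.16 (R 4.3.3, limma 3.58.1) after TMM scaling and filterByExpr by group, with Benjamini-Hochberg adjustment over all genes tested and a threshold of 0.05. The standard error was the log2 fold change divided by the square root of F. IP against input was fitted over all 20 libraries with treatment as a covariate and within each treatment, and 6-3-A6 against control IgG over the kept IP, all IP and all input libraries. An interaction was fitted over 20 libraries. CPM used one TMM scaling of all libraries, with a prior count of 2 on the log2 scale. Levels per kb used exon lengths of GENCODE M21, although the counted spans of collagen genes include introns. The part of intron reads in the differences between IP and input was not tested. Tests were checked on simulated counts with 2-fold and 4-fold changes. Of the 2-fold changes, IP against input called 80 of 97. The same comparison called 36 of 97 within control IgG and 9 of 100 within 6-3-A6 tumors. The treatment comparisons called 37 of 96 (kept IP), 30 of 98 (all IP) and 34 of 99 (input), and the interaction 8 of 98. Comparisons with 0 calls could therefore miss changes of 2-fold. Between 11881214 and 26728205 counts per library set the precision, and the floor of 3 counts covers counting error only. Of 40 pairs of replicates of one group, none agreed within sampling noise (median chi-square per gene 1.96 to 30.1, where noise alone gives 0.455).

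Alternatives were DESeq2 1.42.0, RLE scaling, no filter, each library left out, a replicate block, the tumors of kept libraries, and the endothelial score as a covariate. IP and input of one number come from one tumor, so the number pairs them (correlation of deviations -0.08 to 0.70 over 10 tumors, above 0.1 in 8).

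The collagen genes, classes and gene lists were chosen with earlier results of these data known. Levels (lowest, median and highest in groups over 5, and per library for kept libraries in some) are given for the most abundant genes of each class, the type IV pairs that passed the filter, Col6a3 and the collagens that edgeR called with the filter and without a block. Others are given by their fold change or by name. Figures used matplotlib 3.10.9 in Python 3.11.15.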

Additional observations from a re-analysis of the deposited data

Results flagged for a closer look

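Among 88 groups of 5 libraries, formed by 22 collagen genes in 4 groups, 7 held 1 library far from the other 4 (the gap to its neighbour exceeded 0.71 of the group's range in log2 CPM). Chance gives about 1 in 20 groups if they are independent and normal. The 22 genes share the same libraries, so that the number of flags cannot be set against that rate. Of these, 3 were in 6-3-A6 input 4, where Col4a2 was at 39.5 CPM (others 109 to 165 CPM), Col6a2 at 104 CPM (others 217 to 289 CPM) and Col6a4 at 3.57 CPM (others 0.696 to 0.882 CPM). In 6-3-A6 IP 2, Col18a1 was at 217 CPM (others 124 to 141 CPM) and Col13a1 at 4.13 CPM (others 27.4 to 36.1 CPM). Control IgG IP 3 held Col8a1 at 48.7 CPM (others 114 to 151 CPM) and Col6a4 at 0.494 CPM (others 0.903 to 1.12 CPM). Both IP libraries were left out by the study.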

How the results depend on the processing

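With the tumor as replicate block IP against input called 7120 of 13582 genes and 14 of 31 collagens. In the tumors of the kept IP libraries it called 3347 of 13745 genes and 9 of 31 collagens. There Col6a2 and Col28a1 lost the call and Col1a2 gained it. In control IgG tumors DESeq2 called 3165 of 13671 genes and 7 of 31 collagens, and the replicate block 4640 genes and 10 collagens. In 6-3-A6 tumors the block called 3530 of 13790 genes and 8 of 31 collagens. The interaction with the tumor as block gave 0 calls in edgeR, with 140 genes at an unadjusted p under 0.05. Tumors of the 2 treatments came from different animals and share only a replicate number: deviations of same-numbered libraries correlated above 0.1 in 1 of 5 pairs in IP and 1 of 5 in input, and were best correlated with their own number in 1 and 0 of 5. With that number as replicate block the treatment comparisons over all IP and input also stayed at 0 calls in edgeR (228 and 99 genes at an unadjusted p under 0.05). No paired analysis was possible for the kept IP libraries because the numbers do not pair animals across treatments and only 1 is shared there.

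In the kept IP libraries DESeq2 called 1242 genes and 13 collagens, and without a filter edgeR called 1459 genes and 19 collagens, of which Col13a1 was higher and 18 lower. The fit without a filter gave nearly equal standard errors to most of these collagens, so that its calls are weak. With the endothelial score as a covariate edgeR called 0 genes and 0 collagens, while the collagen median went to -1.56 and Col6a3 to -2.91. The cause of these shifts was not tested.

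With each library left out, IP against input called 5112 to 6205 genes and 8 to 12 collagens, with collagen medians from -0.30 to 0.09. In control IgG tumors it called 1254 to 2935 genes and 4 to 7 collagens (medians -0.25 to 0.14), with 1417, 1254 and 1349 genes without control IgG input 2, IP 2 and IP 3 and 7 collagens without IP 4. In 6-3-A6 tumors it called 1580 to 3283 genes and 4 to 8 collagens (medians -0.42 to 0.00), the lowest gene count without 6-3-A6 IP 4 and the highest collagen count without IP 2. The kept IP libraries gave 9 to 653 genes and 0 to 8 collagens (medians -1.07 to -0.62), with 345 genes without 6-3-A6 IP 1. All IP libraries, input and the interaction gave 0 genes and 0 collagens throughout, with medians from -0.52 to -0.15, -0.33 to 0.01 (the highest without control IgG input 1) and -0.34 to 0.05.

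No log2 fold change called in the edgeR fit with the count filter and without block or score changed sign, but several not called there did, among them that of Col13a1, which was called higher without the filter. In IP against input, the replicate block turned Col5a1 to -0.011, Col6a3 to -0.075 and Col12a1 to -0.12, and the tumors of kept libraries turned them to -0.10, -0.14 and -0.24, and Col14a1 to -0.032. The score turned Col4a1, Col4a2 and Col13a1 to -1.36, -1.77 and -3.40 in the kept IP libraries and Col4a1 to -0.062 over all of them. The block turned the interaction of Col6a3 to -0.18. Over omissions of one library, values on both sides of 0 were seen in IP against input for Col1a1 (-0.39 to 0.26), Col5a1 (-0.089 to 0.24), Col6a3 (-0.15 to 0.31) and Col12a1 (-0.30 to 0.30), in the kept IP libraries for Col15a1 (-0.34 to 0.50) and Col4a2 (-0.071 to 0.66), in all IP libraries for Col4a1 (-0.13 to 0.19), in input for Col1a2 (-0.70 to 0.25), Col4a1 (-0.33 to 0.19) and Col6a4 (-0.36 to 0.50), and in the interaction for Col4a1 (-0.17 to 0.35) and Col6a3 (-0.53 to 0.38). These ranges were followed for a selection of collagens in each comparison, without Col1a1 and Col3a1 in input, so that others may change sign as well. Under settings other than omissions, 299 single-gene log2 fold changes kept their direction and side of the threshold, 14 lost the call and 16 gained it. Scarce collagens rest on few counts, which limits their precision.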
